A study of Homo sapiens with 2 samples.

Results

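The HOX cluster genes were examined in Ca9-22, an established cell line of oral squamous cell carcinoma (OSCC). All genes on the array named HOXA, HOXB, HOXC or HOXD followed by digits were taken, which gave 39 of 43317 gene names, with 11 in the HOXA, 10 in the HOXB, 9 in the HOXC and 9 in the HOXD cluster. The cells had been infected with a lentivirus that carries DLEU1, a long noncoding RNA cloned as full-length cDNA, or with an empty lentivirus as the control vector. Both cultures were kept in blasticidin for 2 weeks. Cy3-labelled RNA of each culture was read on 1 Agilent array of the 1-colour kind, so that each group held 1 sample. No test across samples was therefore possible, and every difference is between these 2 arrays. Whether a selected culture was a pool of cells or a clone was not given in the sources used here.

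HOX proteins are transcription factors that bind DNA through a homeodomain and give cells their position along the body axis. Human HOX genes lie in clusters on separate chromosomes, and members that descend from one ancestral gene share a paralogue number. Within a cluster the genes are turned on in the order in which they lie, so that low numbers act in the head and neck and high numbers towards the trunk, limbs and tail. Polycomb complexes keep the clusters silent, trithorax complexes keep active genes on, and TALE homeodomain proteins of the PBX and MEIS families bind DNA together with HOX proteins. Adult epithelia, keratinocytes among them, keep expressing a part of the HOX genes.

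A level below is the log2 processed signal of a probe minus the 75th percentile of its array, and a difference is the level with the DLEU1 vector minus that with the control vector, on the log2 scale. The error given after ± is the one that the image software assigned to both signals. It holds no variation between cultures. Detected means that the image software flagged the probe as well above background. Where a pair of signals is given, the control vector comes first and the DLEU1 vector follows. Levels of different probes cannot be set against each other, since each probe has its own response.

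The 39 genes were read by 48 probes of 60 bases, each printed in 1 spot. Some of these probes lie in the homeobox, the stretch that encodes the homeodomain and that all HOX genes share. The probes below are of this kind and are shown because 3 of these genes were detected on both arrays and HOXA5 was detected on 1 array only. Capitals mark, in the probes of HOXA5, HOXA9 and HOXD8, the bases that are identical to the HOXC5 probe at the best ungapped shift, and in the HOXC5 probe the bases shared with any of the other probes.
HOXC5: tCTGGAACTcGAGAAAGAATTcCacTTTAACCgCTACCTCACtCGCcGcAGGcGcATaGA
HOXA9: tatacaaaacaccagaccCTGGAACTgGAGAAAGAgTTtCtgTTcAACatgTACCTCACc
HOXD8: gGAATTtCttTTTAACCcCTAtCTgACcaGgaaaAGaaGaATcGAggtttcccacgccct
HOXA5: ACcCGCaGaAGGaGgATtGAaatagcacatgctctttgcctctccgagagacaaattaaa

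In the hg19 build the HOXC5 probe lies at chr12:54428108-54428167 on the plus strand and the HOXA9 probe at chr7:27203345-27203404 on the minus strand. The HOXD8 probe lies at chr2:176996109-176996168 on the plus strand and the HOXA5 probe at chr7:27181547-27181606 on the minus strand. The HOXA9 probe was identical to the HOXC5 probe at 32 of 43 overlapping bases, the HOXD8 probe at 28 of 45 and the HOXA5 probe at 14 of 20. Despite the shared bases the readings of these probes differed. The HOXC5 and HOXA9 probes were lower with the DLEU1 vector, and the HOXD8 probe was higher. The spot of this HOXA9 probe lay in a strip of low signal on the DLEU1 vector array. Binding of a related transcript to these probes was not tested.

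On both arrays 19 of the 39 HOX genes were detected, against 46.7% of all gene names. Another 4 genes were seen only on the DLEU1 vector array, where the share over all gene names was 2.86%. On neither array were HOXA4, HOXA6, HOXA11, HOXB1, HOXB2, HOXB3, HOXB4, HOXB7, HOXB13, HOXC11, HOXC12, HOXD1, HOXD4, HOXD11 and HOXD12 detected, which are 15 genes. By cluster, 7 of 9 in HOXC, 6 of 11 in HOXA, 3 of 10 in HOXB and 3 of 9 in HOXD were detected on both arrays. By paralogue number, all 4 genes of group 9 and all 3 of group 10 were detected on both arrays, and all 3 of group 11 and both members of group 12 on neither.

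**Figure D1:**
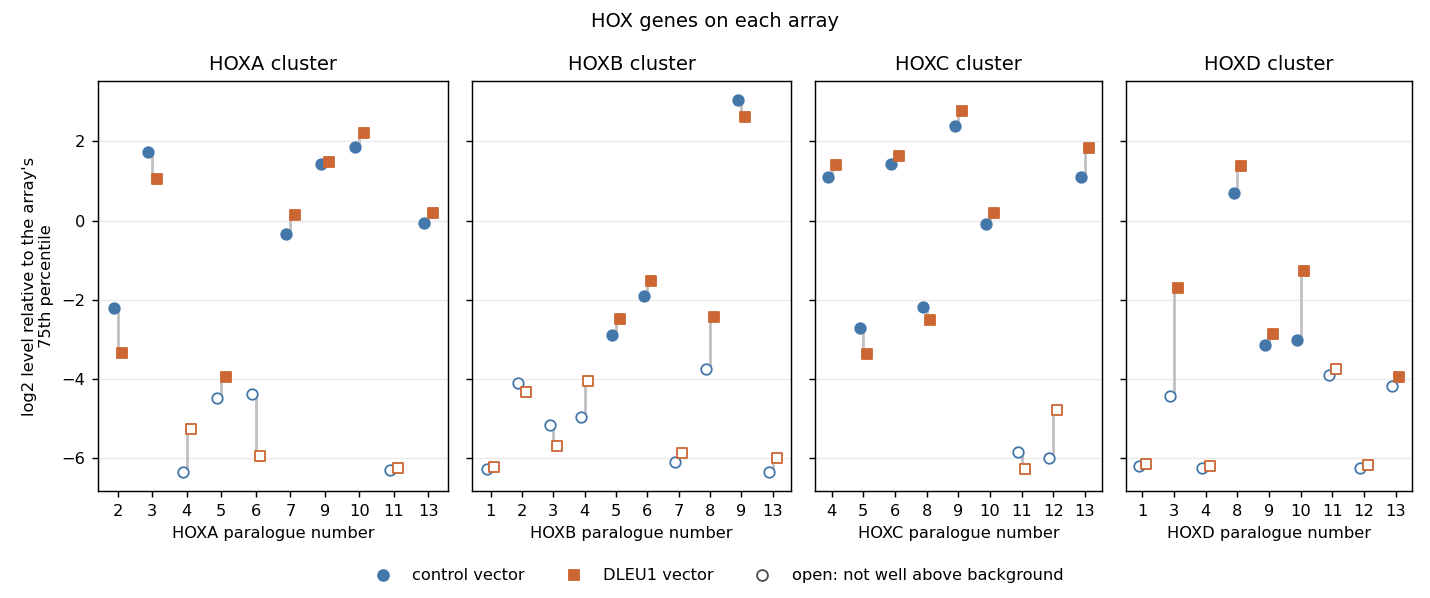
Log2 level of HOX genes relative to the 75th percentile of its array, by cluster and paralogue number. Circles are the control vector array, squares the DLEU1 vector array, and open symbols are signals not well above background; the longest line that joins 2 filled symbols is at HOXD10. Levels of different genes come from different probes and cannot be compared.

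In each direction 1 HOX gene detected on both arrays differed by at least 2-fold. Of the 19 genes detected on both arrays, HOXD10 was at least 2-fold higher with the DLEU1 vector, where 9.18% of 20246 gene names were, and HOXA2 was at least 2-fold lower, where 9.78% were. The median difference of the 19 genes was 0.29, with a range from -1.14 to 1.74, and that of all gene names was -0.07. A total of 14 HOX genes were higher by any amount and 5 were lower, where 45.8% of all gene names were higher and 54.2% lower. These directions depend on the scaling. With the spike-in probes set equal between the arrays the median over all gene names was -0.53, that of the HOX genes was -0.17, and 4 HOX genes were higher and 15 lower. The share of higher genes among all calls was then 16% in place of 48.4%. The HOX median was above that of all gene names by 0.36, a gap that any scaling by a constant per array leaves as it is, by 0.22 with normexp and by 0.21 without a filter on dim probes.

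Seen against the error of the software, 17 of the 19 genes differed by more than 1 error, where 74.1% of gene names with 1 spot did. By more than 2 errors, 7 HOX genes differed, where 52.3% of gene names did. HOXD10, HOXC13, HOXD8 and HOXA7 were the 4 higher ones, where 23.7% of gene names were, and HOXA2, HOXA3 and HOXB9 the 3 lower ones, where 28.6% were. Counted by probe, 22 HOX probes were detected on both arrays, of which 1 was at least 2-fold higher, where 8.98% of all probes were, and 2 were lower, where 9.78% were. HOXA9, at its brightest probe, and HOXD9 differed by less than 1 error.

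**Figure D2:**
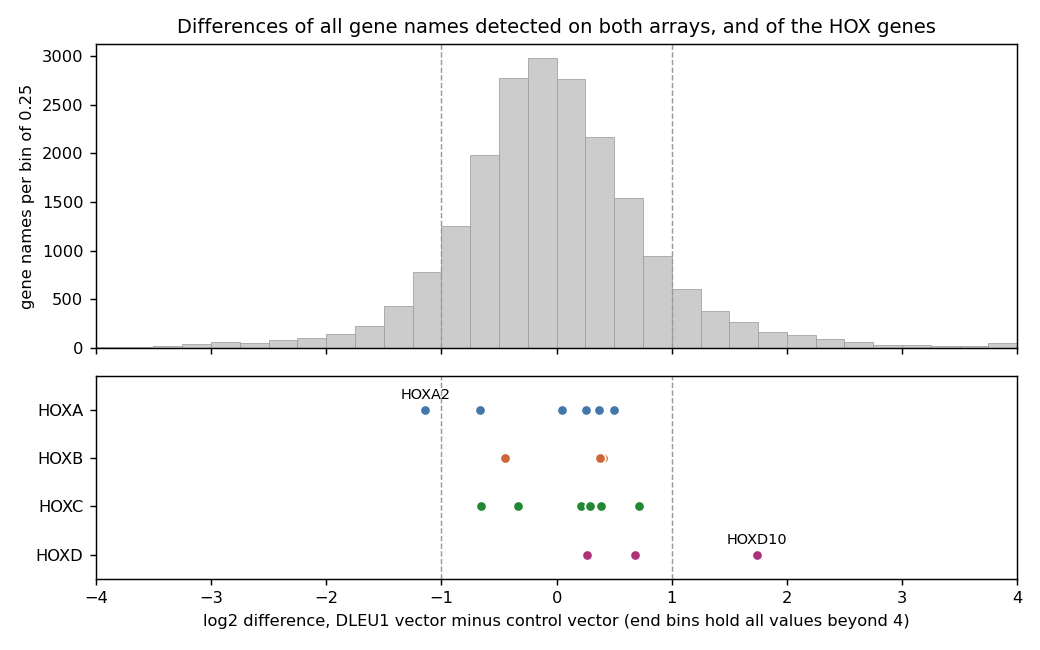
Histogram of the log2 difference of 20246 gene names detected on both arrays (upper panel, number of gene names per bin) and the differences of the 19 HOX genes by cluster (lower panel, 1 point a gene). Dashed lines mark 2-fold; HOXA2 and HOXD10 lie beyond them.

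The HOXD cluster held the largest difference, at HOXD10, and the largest bound, at HOXD3. HOXD10, which takes part in patterning of the hindlimb and its motor neurons, gave processed signals of 29.9 and 97.7. The difference of 1.74 ± 0.28 corresponds to 3.35-fold. Both signals were dim, and with the normexp background correction the difference was 0.74, below 2-fold. HOXD3, a gene of the neck and upper trunk, gave a signal of 11.1 with the control vector, which was not well above background, and 72.3 with the DLEU1 vector. It was at least 5.22-fold higher with the DLEU1 vector, with an error of 0.53 on the log2 scale. A further HOXD3 probe, of another transcript, was detected on neither array.

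HOXD8, expressed in the trunk of the embryo, gave signals of 390 and 609, well above background on both arrays, and a difference of 0.68 ± 0.20. HOXD9 acts in the forelimb and lumbar region and gave signals of 27.6 and 32.2, a difference of 0.26 ± 0.32 that lay within its error. A further HOXD9 probe was detected on neither array. HOXD13, which shapes the digits, was detected with the DLEU1 vector only, with signals of 13.2 and 15.3. These differed by less than their error of 0.46 on the log2 scale. The 3 HOXD genes detected on both arrays had a median of 0.68, and none of these 3 was lower. With the spike-in probes set equal the HOXD median was 0.22 and HOXD9 was lower, at -0.20.

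In the HOXA cluster HOXA2 and HOXA3 were lower with the DLEU1 vector. HOXA2, which specifies the second pharyngeal arch, gave signals of 52.1 and 23.0, a difference of -1.14 ± 0.34 or 2.20-fold lower. With normexp the difference was -0.34, below 2-fold. HOXA3, needed for the thymus and parathyroid glands, was well lit on both arrays, with signals of 802 and 492 and a difference of -0.67 ± 0.20.

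Further along the cluster the sign changed. HOXA7, known to restrain differentiation genes in keratinocytes, gave signals of 190 and 262 and a difference of 0.50 ± 0.21. HOXA10, a gene of the female reproductive tract, gave 876 and 1100 and a difference of 0.37 ± 0.20 with a probe that spans an exon junction. A further HOXA10 probe was detected on neither array. HOXA13, a gene of the distal limb and genital tubercle, gave 233 and 271 and a difference of 0.26 ± 0.21. HOXA5, which acts in the developing lung, was detected with the DLEU1 vector only, with signals of 10.7 and 15.1. The bound on its difference, 0.12, was less than the error of 0.52. HOXA10 and HOXA13 were lower, at -0.09 and -0.21, with the spike-in probes set equal, where HOXA7 was still higher at 0.04.

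HOXA9, a gene of blood progenitors that is active in several leukaemias, had 4 detected probes that disagreed. The brightest probe, at chr7:27203145-27203204, gave signals of 650 and 653, a difference of 0.05 ± 0.20. The homeobox probe printed above gave 133 and 42.9, a difference of -1.60 ± 0.25. The probe at chr7:27202588-27202647 gave 779 and 403, a difference of -0.91 ± 0.20. The probe at chr7:27202258-27202317 gave 299 and 180, a difference of -0.69 ± 0.21. Thus 3 probes of the gene were lower and 1 did not differ beyond its error, and the 4 differences ranged over 1.64, where the SD between probes of a gene was 0.47 over 4674 genes. The strip that held the homeobox probe (columns 36 to 40, rows 1 to 110) was one in which 43.7% of the probes detected with the control vector were at least 2-fold lower, against 12.2% outside it. None of the other HOX probes lay there. With the mean of the 4 probes HOXA9 was at -0.79, and the median of the HOXA cluster was -0.21 in place of 0.15.

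**Figure D3:**
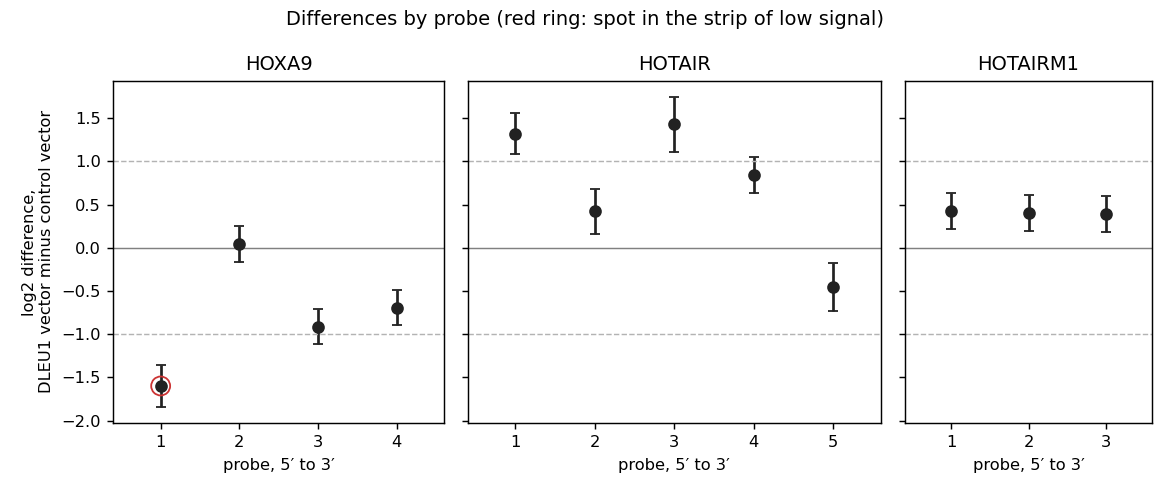
Log2 difference of each detected probe of HOXA9 and of the noncoding RNAs HOTAIR and HOTAIRM1, in order from 5′ to 3′ on the strand of the gene. Bars are the error of the software. The last HOTAIR probe is listed under a transcript that is not listed for the other HOTAIR probes. The red ring marks the probe in the strip of low signal, and dashed lines mark 2-fold; the probes of HOTAIRM1 lie together and those of HOXA9 and HOTAIR do not.

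In the HOXB cluster 3 genes were detected on both arrays. HOXB9, a gene of the thoracic region, gave signals of 2016 and 1441 and a difference of -0.45 ± 0.20. HOXB5, which acts in the shoulder region and enteric neurons, gave signals of 32.7 and 42.0 and a difference of 0.40 ± 0.28. HOXB6, expressed in the trunk mesoderm, gave 64.4 and 81.3 and a difference of 0.37 ± 0.22. HOXB9 was thus lower and HOXB5 and HOXB6 were higher, but HOXB5 and HOXB6 were lower, at -0.06 and -0.09, with the spike-in probes set equal. HOXB8, a gene of blood progenitors and microglia, was detected with the DLEU1 vector only, with signals of 17.8 and 43.4. Set against its own control signal, which was not well above background, it was 2.49-fold higher, a difference of 1.32 ± 0.35. When the bounds of such genes were counted with the measured differences, HOXB8, HOXD3 and HOXD10 were at least 2-fold higher and HOXA2 lower among 24 detected genes, where 10.2% of gene names were higher and 10% lower.

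The HOXC cluster had the most genes detected on both arrays, and none of these 7 genes reached 2-fold. HOXC13, the regulator of hair and nail keratins, gave signals of 522 and 837 and had the largest difference of the cluster, 0.72 ± 0.20. HOXC9, a gene of the thoracic spinal cord, gave 1265 and 1615 and a difference of 0.39 ± 0.20. HOXC4 and HOXC6, genes of the neck and upper trunk, differed by 0.31 ± 0.20 and 0.21 ± 0.20, and HOXC10, a gene of the lumbar region and hindlimb, by 0.29 ± 0.21. Their signals were 519 and 625 for HOXC4, 647 and 730 for HOXC6, and 226 and 269 for HOXC10. HOXC5, a gene of the neck, was lower, with signals of 36.8 and 22.8 and a difference of -0.65 ± 0.34. HOXC8, a gene of the brachial spinal cord, gave 53.3 and 41.1 and a difference of -0.34 ± 0.24. Both lower members had signals under 100, and with normexp they were at -0.16 and -0.09. With the spike-in probes set equal HOXC4, HOXC6, HOXC9 and HOXC10 were lower too, between -0.25 and -0.07, and HOXC13 was higher at 0.26.

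**Figure D4:**
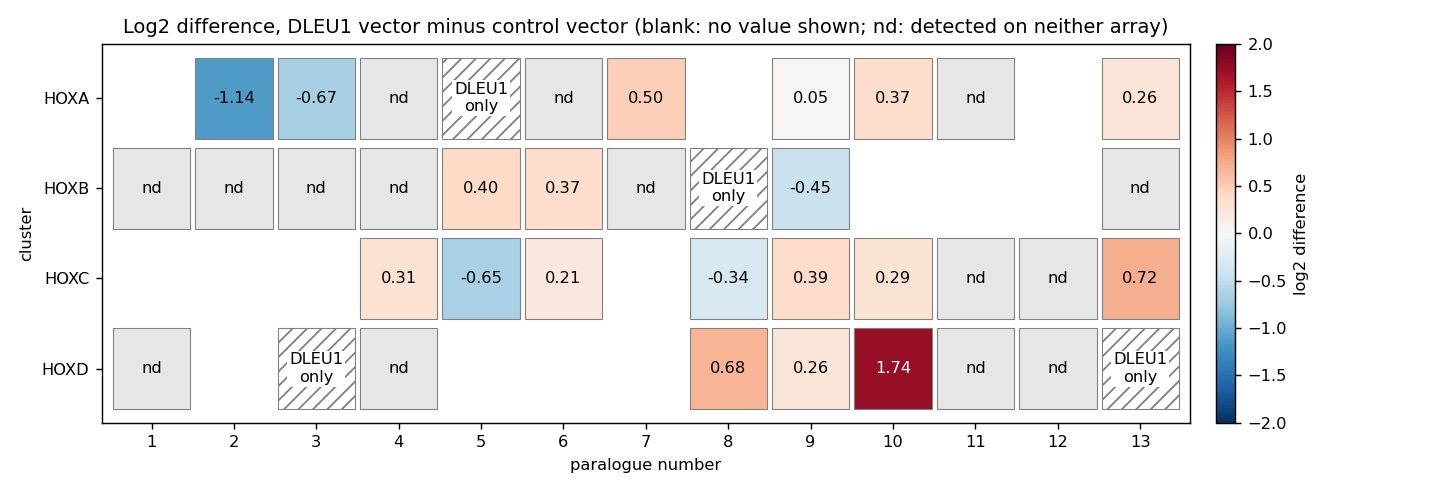
Log2 difference of HOX genes by cluster (rows) and paralogue number (columns), with red for higher and blue for lower with the DLEU1 vector. Hatched cells are genes detected on the DLEU1 vector array only, grey cells marked nd were detected on neither, and blank places show no value; the darkest red is HOXD10 and the darkest blue HOXA2.

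Paralogues did not share a direction in every group. In group 3, HOXA3 was lower and HOXD3 was detected with the DLEU1 vector only. In group 5, HOXC5 was lower and HOXB5 higher. In group 9, HOXB9 was lower, HOXC9 was higher, HOXD9 lay within its error, and the HOXA9 probes disagreed. In group 10, HOXA10, HOXC10 and HOXD10 were all higher, by 0.37, 0.29 and 1.74, and in group 13 HOXA13 and HOXC13 were higher. The median difference was -0.90 for the 2 genes of groups 1 to 3 detected on both arrays, 0.34 for the 8 of groups 4 to 8 and 0.29 for the 9 of groups 9 to 13. The last 2 medians were -0.12 and -0.17 with the spike-in probes set equal, where that of groups 1 to 3 was -1.36. These medians are descriptions, since genes of a cluster share regulators and are not replicates.

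The promoters of HOXA2, HOXD3 and HOXD10, the genes past 2-fold that had a promoter entry, are shown with 4 motifs in capitals, searched on both strands. The CCAAT box is named by its letters. The classical TATA box was searched as TATAAA. The core bound by many homeodomains was searched as TAATTA. The joint site of HOX and PBX proteins was searched as TGATTNAT. They hold 250 bases before and 50 after the start, from RefSeq on GRCh38.p14, and 20 of the 39 genes had such an entry, with 27 promoters among 35116. No 2 matches in these promoters overlapped. They lie at chr7:27102634-27102933 (minus strand) for HOXA2, chr2:176157057-176157356 (plus strand) for HOXD3 and chr2:176116528-176116827 (plus strand) for HOXD10.
HOXA2: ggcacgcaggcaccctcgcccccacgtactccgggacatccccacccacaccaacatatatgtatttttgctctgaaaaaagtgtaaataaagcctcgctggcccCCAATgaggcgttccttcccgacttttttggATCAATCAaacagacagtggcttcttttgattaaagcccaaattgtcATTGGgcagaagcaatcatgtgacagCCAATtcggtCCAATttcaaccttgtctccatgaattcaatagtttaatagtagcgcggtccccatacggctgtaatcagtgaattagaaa
HOXD3: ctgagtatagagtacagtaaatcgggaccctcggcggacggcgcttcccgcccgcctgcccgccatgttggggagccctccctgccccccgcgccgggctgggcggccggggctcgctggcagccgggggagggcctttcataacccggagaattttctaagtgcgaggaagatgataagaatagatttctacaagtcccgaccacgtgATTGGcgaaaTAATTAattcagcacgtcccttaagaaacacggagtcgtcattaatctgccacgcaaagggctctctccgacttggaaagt
HOXD10: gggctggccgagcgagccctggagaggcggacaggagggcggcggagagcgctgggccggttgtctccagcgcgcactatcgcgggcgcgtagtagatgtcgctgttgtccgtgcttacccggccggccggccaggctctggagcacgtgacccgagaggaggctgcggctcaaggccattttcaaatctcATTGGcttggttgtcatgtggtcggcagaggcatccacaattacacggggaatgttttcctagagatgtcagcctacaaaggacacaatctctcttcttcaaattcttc

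The HOXA2 promoter held 4 CCAAT boxes and 1 joint site, the HOXD3 promoter 1 CCAAT box and 1 homeodomain core, and the HOXD10 promoter 1 CCAAT box. CCAAT was in 18 of the 27 HOX promoters and in 34.6% of all promoters. The TATA box was in 5 HOX promoters and 11.5% of all, the homeodomain core in 2 and 4.84%, and the joint site in 2 and 2.82%. The HOXD3 and HOXD10 promoters held 25 and 23 CG pairs and the HOXA2 promoter 11. The median was 22 over the 27 HOX promoters and 14 over all promoters. A match to letters is not a bound site.

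The noncoding RNAs of the clusters were read from 16 names with a probe, of which 14 were detected on both arrays, HOXA-AS2 with the DLEU1 vector only and HOXA-AS3 on neither. Their median difference was 0.44, with 11 higher and 3 lower, where 45.8% and 54.2% of gene names were. A single RNA of the 14 passed 2-fold in each direction, where 9.18% and 9.78% of gene names did. With the spike-in probes set equal the median was -0.02. HOXC-AS1, antisense to the HOXC9 region, gave signals of 88.5 and 244 and was 2.83-fold higher, while HOXC9 itself was 1.31-fold higher. HOXA10-AS gave 2292 and 1006 and was lower, at -1.15 ± 0.20, while HOXA10 was higher. HOXA11-AS gave 60.4 and 116 and a difference of 0.98 ± 0.22, while HOXA11 was detected on neither array.

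HOTAIR, a noncoding RNA of the HOXC cluster known for its binding to Polycomb, had 5 detected probes. Its brightest probe gave 159 and 278 and a difference of 0.84 ± 0.21. Other HOTAIR probes were higher by 1.43, 1.32 and 0.42. The one nearest to the HOXC12 probe, at chr12:54350159-54350218, was lower, at -0.45 ± 0.28. The transcript listed for this lower probe is not one listed for the higher probes. Whether the higher probes also lie in that transcript was not looked up. HOTAIRM1, which lies beside HOXA2, had 3 probes that differed by 0.39, 0.40 and 0.43. They were higher while HOXA2 was lower, but with the spike-in probes set equal HOTAIRM1 was at -0.06. HOTTIP, at the HOXA13 end, gave 29.7 and 20.4 and a difference of -0.51 ± 0.36. With normexp that difference was -0.02, and further HOTTIP probes were detected on neither array.

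Of the other noncoding RNAs, HOXC13-AS differed by 0.59 ± 0.20, HOXC-AS3 by 0.73 ± 0.20 and HOXC-AS2 by 0.33 ± 0.41. HOXB-AS1 differed by 0.57 ± 0.39 and HOXB-AS3 by 0.47 ± 0.21. In the HOXD cluster HAGLR differed by 0.21 ± 0.23, HAGLROS by 0.18 ± 0.20 and HOXD-AS2 by -0.19 ± 0.20. These noncoding RNAs of HOXD each differed by less than their error, where HOXD10 differed by more. HAGLR, HAGLROS and HOXC-AS2 were lower with the spike-in probes set equal. HOXA-AS2 gave 10.0 and 32.7 and was at least 2.37-fold higher with the DLEU1 vector, with an error of 0.60 on the log2 scale. Further HOXA-AS2 probes were detected on neither array, with signals of 16.7 and 10.3 and of 8.9 and 17.6.

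**Figure D5:**
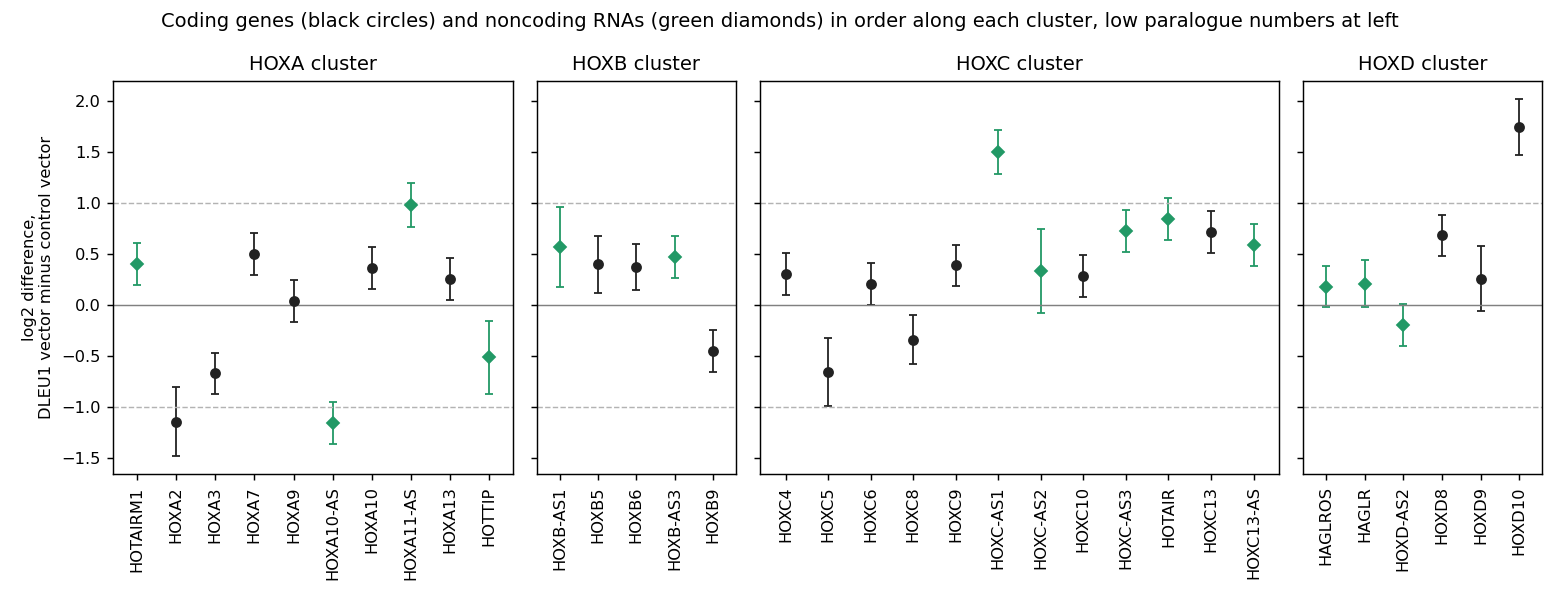
Log2 difference of the coding HOX genes (black circles) and of the noncoding RNAs (green diamonds) detected on both arrays, in their order along each cluster with low paralogue numbers at left, with the error of the software as bars. Dashed lines mark 2-fold; HOXC-AS1 and HOXD10 lie above, and HOXA2 and HOXA10-AS below.

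Of 9 genes of TALE cofactors, which bind DNA beside HOX proteins, 8 were detected on both arrays, with a median of 0.37. MEIS3 gave signals of 36.3 and 83.6, a difference of 1.24, which was below 2-fold with normexp and with the spike-in probes. PBX3 gave 697 and 283, a difference of -1.26. MEIS1 differed by 0.62, PKNOX1 by 0.60, PBX2 by 0.14, MEIS2 by -0.38 and PBX4 by -0.81. PKNOX2 was detected with the DLEU1 vector only, with signals of 11.3 and 57.4. It was at least 4.15-fold higher, with an error of 0.49 on the log2 scale. With the spike-in probes set equal the median of the cofactors was -0.09 and PBX2 was at -0.32.

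Among the Polycomb-side regulators, 17 of 18 were detected on both arrays, with a median of -0.33. EZH2, the methyltransferase of Polycomb complex PRC2, gave 2235 and 771 and was 2.82-fold lower, and its partners EED and RBBP7 were at -1.09 and -1.08. JARID2, which guides PRC2, gave 2735 and 6840 and was higher by 1.36. PCGF2 was detected with the control vector only, and its probe lay in the strip of low signal. Of the 12 trithorax-side regulators all were detected, with a median of -0.22. KDM6B, a demethylase of the Polycomb mark, was higher by 1.11, and WDR5, a core subunit of the complexes, was lowest at -0.96. EED and RBBP7 did not reach 2-fold with quantile scaling, loess or the 75th percentile over detected probes, KDM6B with the median, normexp or the spike-in probes, and JARID2 with the spike-in probes.

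Of the upstream activators, 9 of 14 were detected on both arrays, with a median of -0.07. EGR2, which turns on HOX genes in the hindbrain, was higher by 1.76, and GBX2, a hindbrain factor, was at -2.81. Of the genes beside the clusters, 14 of 18 with a probe were detected, with a median of -0.11. CALCOCO1, beside HOXC, was higher by 3.38, from signals of 144 to 1454, and KIAA1715, beside HOXD, was lowest at -0.87. Among 76 other homeobox genes 42 were detected on both arrays, with a median of 0.22. DLX5, SATB1, SIX5, EN1, DLX2 and TGIF1 were at least 2-fold higher, by 3.58, 2.61, 2.08, 2.03, 1.84 and 1.41, which are 6 of 42 where 9.18% of gene names were, and MSX1 was lower, at -1.42, which is 1 of 42 where 9.78% were. With the spike-in probes set equal the median of these genes was -0.24, and TGIF1 was below 2-fold there and with the mean of its probes.

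The labels and the state of the cells were checked on other genes. DLEU1 was higher with the DLEU1 vector by 2.74 at its brightest probe. Further DLEU1 probes, of another listed transcript and with signals under 100, were higher by 0.85 and 0.54. Both arrays were of 1 slide and 1 scan. All 7 epithelial and keratinocyte markers were detected on both arrays, with summed signals of 125001 and 338083. Of these, 6 were higher, where 45.8% of gene names were, with KRT14 highest at 2.85. EPCAM was lower, at -0.78, where 54.2% of gene names were lower. Of 8 keratinocyte differentiation markers 7 were detected on both arrays and KRT1 with the DLEU1 vector only, with summed signals of 23649 and 238547. All 7 proliferation markers were at least 2-fold lower with the DLEU1 vector, where 9.78% of gene names were. Their summed signals were 54111 and 9900. The part of these shifts in the HOX differences was not tested, and fewer cells of a state and less RNA per cell cannot be told apart in bulk RNA. Of 7 fibroblast and mesenchymal markers 2 were detected on both arrays and LUM with the DLEU1 vector only. The other 4, DCN and COL1A2 among them, were detected on neither. Of 5 endothelial markers 2 were detected on both arrays, with PECAM1 and KDR on neither. In the fibroblast list COL1A1 was higher by 3.99, PDGFRB was at -0.33, and LUM gave signals of 4.67 and 34.1. In the endothelial list VWF was higher by 3.70 and CDH5 was at -0.59. Leukocyte markers were detected for 3 of 4, with CD3E on neither array and CD14 at -1.60, and melanocyte and neural markers for 2 of 5.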

How the data were processed

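Intensity values were deposited as the processed signal of Agilent Feature Extraction (version 10.7.3.1 per the file headers), which took off the background, removed trends across the array and put a surrogate in place of the dimmest signals. GeneSpring was used by the authors for the analysis. The series values were the same intensity, rounded, within 0.497%. Probe positions are on hg19.

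Control and outlier-flagged spots were left out, log2 signals were averaged over the spots of a probe, and each array was centred on its 75th percentile, control probes left out (7.92 for the control vector, 7.88 for the DLEU1 vector). The log2 differences were computed from the deposited intensity. A gene took its brightest probe detected on both arrays. A gene detected on 1 array was given as a bound, taken against its own dim signal or the lowest signal detected on that array, whichever was higher. Calls were made at 2-fold. Probes well above background made up 47.6% and 48.1% of 58201. The spot SD of a difference was 0.08 over 282 replicated probes, and 0.31 over the 5 of them with a mean signal under 100.

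Every HOX gene detected on at least 1 array was named with its values, and so were the TALE cofactors and cluster noncoding RNAs so detected, except for items that are not reported here. Of the lists of regulators, neighbours and other homeobox genes, the members past 2-fold and the highest and lowest member were named. Marker lists were given by counts and summed signals, with a few members. Members and lists were chosen with earlier results of these data known. Alternatives were other scalings, normexp with an offset of 50 (limma 3.58.1), the series values, other filters on dim probes, the mean of probes, thresholds of 1.5- and 3-fold, and bounds added. Spike-in scaling and leaving out the strip of low signal were chosen after seeing the data. The scripts were tested on simulated data. The number of arrays limits the precision.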

Additional observations from a re-analysis of the deposited data

How the results depend on the processing

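Of the 19 genes detected on both arrays, 9 kept their sign under all alternatives that gave them a value (12 or 13 for each gene), 9 changed it with spike-in scaling only, and HOXA9 changed it with median scaling, normexp, the mean of its probes and spike-in scaling. None of the HOX calls changed its sign. Over the HOX gene differences, 157 of 240 alternative values stayed within 1 spot SD of the main value and 83 did not.

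The median HOX difference of 0.29 was -0.17 with spike-in scaling, 0.19 with normexp, 0.17 when arrays were centred on the median and 0.40 when the percentile was taken over detected probes. The count of genes at least 2-fold higher, 1 in the main setting, was 0 with normexp and with a signal of at least 100, 5 without a filter, 3 with the positive and significant flag, 3 at 1.5-fold and 3 with bounds added. The count of lower genes, also 1, was 0 with normexp, with a signal of at least 100 and at 3-fold, and 3 without a filter, with the positive and significant flag, at 1.5-fold and with spike-in scaling. The count of detected genes, 19, was 39 without a filter, 12 with a signal of at least 100 and 30 with the positive and significant flag. The cause was not tested. No paired analysis was possible because each group had 1 array. With 1 array a group no replicate could be left out, and HOXD10 and HOXA2 rested on signals under 100.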
